A study of Mus musculus with 8 samples.

Results

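Apoa1, Apoa2, Apoe, Apoh and Fabp1 were followed through the cells of mouse tumours grown from Hepa1-6, an established mouse hepatoma cell line. They were chosen by name, and all 5 were found among the 2000 genes of the pooled single-cell table. The labels list 8 entries, a cDNA and an oligo library for each of 4 groups: tumours of unedited (WT) cells with intraperitoneal PBS, WT tumours with intraperitoneal PD1 antibody, Soat1-edited tumours with PBS, and Soat1-edited tumours with the antibody. Soat1 encodes an enzyme that esterifies cholesterol, and the entry titles call the edited cells knockout while the genotype field says knockdown. PD1 is a checkpoint receptor of T cells. Tumours were dissociated and red cells lysed before capture. Host strain, age and the number of animals are not given in the sources used here. The 53528 cells carry a set number from 1 to 6 in their names and nothing ties a set to a group, so neither genotype nor treatment was compared and the table was treated as 1 sample. Classes of cells were compared within a set, and no p-value was computed because cells of 1 sample are not replicates.

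These genes are typical products of the hepatocyte. Apoa1 and Apoa2 encode the main proteins of high-density lipoprotein, Apoe the ligand by which remnant lipoproteins are taken up by cells of the liver, Apoh the plasma protein beta-2-glycoprotein I, and Fabp1 the cytosolic fatty acid-binding protein of liver. Macrophages are the best known source of Apoe outside the liver, where it takes part in the export of cholesterol. In droplet data, RNA set free from abundant tumour cells can be captured with any cell, so UMIs (unique molecular identifiers, each marking a captured transcript) of a liver gene in a T cell need not come from that cell.

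The sequence before the start site is shown for 3 genes, because Apoa2 and Fabp1 varied together over hepatoma cells while Apoe followed another pattern (below). The letters are from the RefSeq promoter table of build GRCm38.p6, 5′ to 3′ on the strand of the gene, and end before the earlier of the RefSeq and GENCODE start sites. Capitals mark matches to the motifs listed after them.
Apoa2, chr1:171224804-171225053, plus strand: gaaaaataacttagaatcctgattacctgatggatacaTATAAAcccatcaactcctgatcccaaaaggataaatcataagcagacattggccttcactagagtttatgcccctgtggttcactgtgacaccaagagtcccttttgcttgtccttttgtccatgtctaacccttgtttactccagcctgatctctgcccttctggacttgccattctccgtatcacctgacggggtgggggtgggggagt
Fabp1, chr6:71199629-71199826, plus strand: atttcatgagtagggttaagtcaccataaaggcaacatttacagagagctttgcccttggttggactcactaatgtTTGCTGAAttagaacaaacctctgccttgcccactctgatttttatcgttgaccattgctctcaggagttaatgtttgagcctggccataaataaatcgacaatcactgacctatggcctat
Apoe, chr7:19699189-19699438, minus strand: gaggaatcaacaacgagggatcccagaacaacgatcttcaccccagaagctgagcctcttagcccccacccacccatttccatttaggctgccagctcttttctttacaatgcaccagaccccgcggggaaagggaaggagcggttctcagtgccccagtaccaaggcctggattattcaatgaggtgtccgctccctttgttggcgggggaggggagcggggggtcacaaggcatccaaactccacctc
In the 250 bases before the RefSeq start, both strands were searched for 4 motifs, with N for any base. The motif of HNF4A was CAAAGTNCA and that of C/EBP was TTNNGCAA, both being liver transcription factors. The other motifs were the TATA box, searched as TATAAA, and that of HIF1A, searched as ACGTG. Fabp1 held TATAAA at -30 to -25, outside the stretch printed, and the C/EBP motif on the other strand at -174 to -167. Apoa2 held TATAAA at -212 to -207, and the windows of Apoa1, Apoe and Apoh held none of the 4 motifs. Of all 32817 promoter windows of this length, 12.4% held TATAAA, 9.57% the C/EBP motif, 16.6% ACGTG and 1.19% CAAAGTNCA. These matches describe letters only.

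Cells were assigned to classes by the mean deposited value of marker genes that include none of the 5 genes. Set 1 is the set in which UMI counts could be recovered, and after removal of 91 called doublets it gave 6022 hepatoma cells, 628 macrophages, 74 monocytes, 1249 T cells and 76 fibroblasts. Cells within 10% of a class threshold over the 6 sets were 1417 for hepatoma, 443 for macrophages, 742 for monocytes, 615 for T cells and 17 for fibroblasts. Median depth in set 1 was 18770 UMIs in hepatoma cells, 2768 in macrophages, 2780.5 in monocytes, 4903 in T cells and 6666 in fibroblasts. The macrophage markers, among them C1qa and Mrc1, summed to 9720 CPM in macrophages (a gene's UMIs scaled to 1000000 UMIs of the class) and 28.8 CPM in hepatoma cells. The 17 hepatoma markers in the table summed to 14610 CPM in hepatoma cells, 3982 in macrophages, 2391 in monocytes, 2786 in fibroblasts and 1849 in T cells. Of these markers H19 and Dlk1 were near 0 in the hepatoma cells themselves, at 0.0617 and 0.137 CPM. H19 was at 0 UMIs in macrophages, monocytes and T cells, monocytes also lacked Dlk1, Igf2 and Vtn, and H19 was highest in fibroblasts, at 137 CPM.

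Across cell classes of set 1, all 5 genes were lower in every other class than in hepatoma cells as a whole. In macrophages Apoe was lowered least and stayed within 2-fold. The contrast with Apoa1, Apoa2 and Fabp1 there rested on 117 hepatoma cells with very high levels (below). Without these cells the macrophage log2 ratio was -0.59 for Apoa1, 0.28 for Apoa2 and 0.03 for Fabp1, while Apoh remained past 2-fold lower. Apoe reached 3153 CPM in hepatoma cells (95% interval 3144 to 3162, counting error only, as for all intervals here). It reached 2146 CPM in macrophages (2089 to 2205), 928 in monocytes (810.1 to 1059), 519 in fibroblasts (464 to 579) and 383 in T cells (370.0 to 397). The intervals of these 5 classes did not overlap. In smaller classes Apoe stood at 1376 CPM in 45 dendritic cells, 814 in 65 neutrophils and 469 in 30 NK cells. The macrophage level was 0.681 times that of hepatoma cells (0.662 to 0.700), inside the 2-fold limit used below.

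Apoa1 stood at 172 CPM in hepatoma cells, 54.6 in macrophages (45.7 to 64.7), 30.6 in fibroblasts (18.4 to 47.7), 29.4 in monocytes (11.8 to 60.6) and 25.7 in T cells (22.4 to 29.4). Hepatoma cells were highest, and the intervals of fibroblasts, monocytes and T cells overlapped. That of macrophages overlapped those of fibroblasts and monocytes, but not that of T cells. Apoa2 stood at 55.4 CPM in hepatoma cells, against 13.4 in macrophages (9.25 to 18.9), 8.54 in T cells (6.65 to 10.8) and 8.04 in fibroblasts (2.61 to 18.8). Fabp1 stood at 68.1 CPM in hepatoma cells, 15.1 in macrophages (10.6 to 20.8), 14.5 in fibroblasts (6.62 to 27.5) and 6.71 in T cells (5.05 to 8.73). Apoh stood at 31.4 CPM in hepatoma cells, 9.65 in fibroblasts (3.54 to 21.0), 6.52 in macrophages (3.73 to 10.6), 4.201 in monocytes (0.106 to 23.4, from 1 UMI) and 3.66 in T cells (2.47 to 5.22). Monocytes had 0 UMIs of Apoa2 and of Fabp1, which with a floor of 3 UMIs over the class puts Apoa2 at least 4.40-fold lower and Fabp1 at least 5.40-fold lower than in hepatoma cells.

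**Figure D1:**
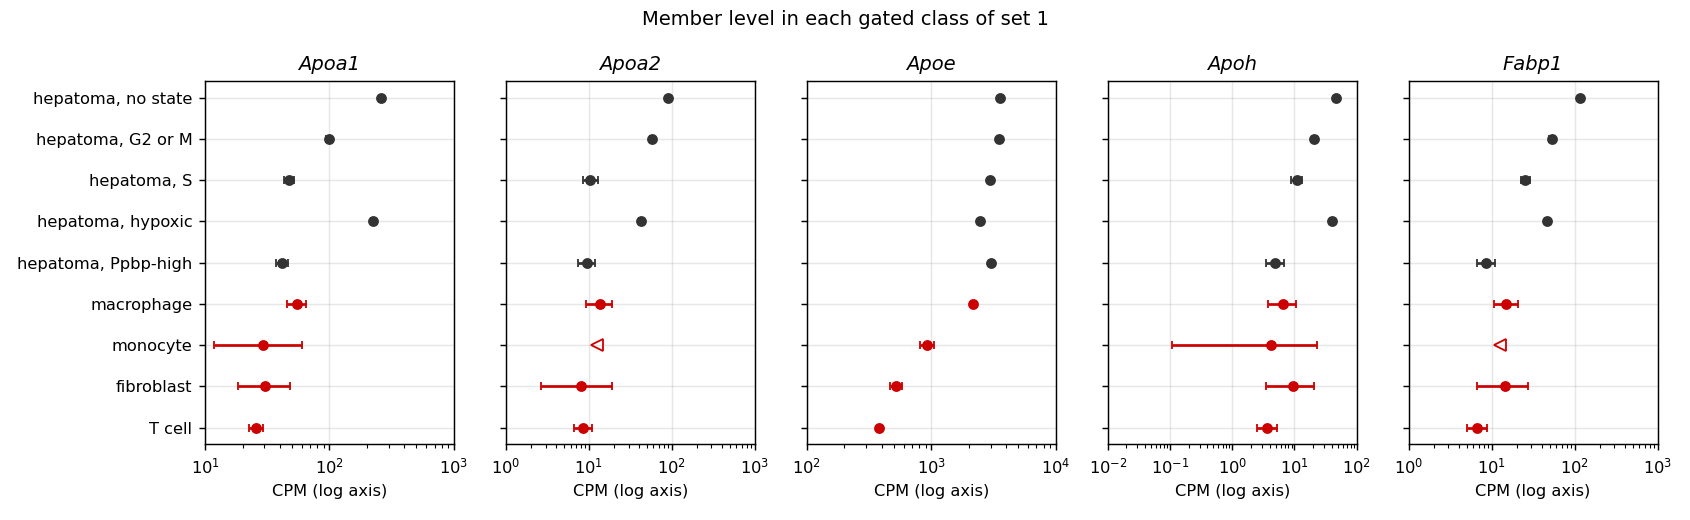
Level of each gene in CPM (log axis) in the gated classes of set 1, hepatoma states in black and other classes in red, with exact 95% Poisson intervals for counting error; the open triangle marks the level of 3 UMIs where a class had none. Apoe in macrophages, at 2146 CPM, lies just below the hepatoma states, while for the other 4 genes S-phase and Ppbp-high hepatoma cells lie near the non-tumour classes.

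Counted with a pseudocount of 1 CPM, 4 of the 5 genes were past 2-fold lower in macrophages than in hepatoma cells, and Apoe was not. Of all genes with at least 20 UMIs over both classes, 30.4% were past 2-fold lower in that comparison and 22.8% past 2-fold higher. All 5 were past 2-fold lower in monocytes (44.3% of all genes, with 23.6% higher), in T cells (35.5%, with 23.3% higher) and in fibroblasts (31.2%, with 28.2% higher). The median log2 ratio of the 5 genes was -1.97 in macrophages, where that of all genes was -0.28, and -2.80 in T cells, where it was -0.26. Since hepatoma cells were gated by other hepatocyte genes, their higher value of a liver gene was in part built into that gate. The gates of the other classes set no limit on hepatocyte genes.

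For Apoe, the order of hepatoma cells, macrophages and T cells was the same in the other sets on the deposited natural-log scale. Sets 2 to 6 had been altered there by a step that no label records. The mean Apoe value in hepatoma cells was 3.21, 3.22, 3.22, 3.21, 3.17 and 3.29 in sets 1 to 6. In macrophages it was 2.66, 2.52, 2.70, 2.70, 2.46 and 2.60, and in T cells 1.34, 1.23, 1.20, 1.27, 1.27 and 1.36. The 3 classes did not overlap over the sets. Monocytes (1.67 to 2.03) and fibroblasts (1.66 to 1.97) lay between macrophages and T cells and overlapped each other, with monocytes higher in sets 1, 3 and 5 and fibroblasts in sets 2, 4 and 6.

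Mean Apoa1 values of hepatoma cells ran from 0.404 to 0.550 over the sets and those of macrophages from 0.159 to 0.208. Apoh ran from 0.126 to 0.188 in hepatoma cells and from 0.0216 to 0.0332 in macrophages, and Apoa2 from 0.101 to 0.118 and from 0.0503 to 0.0678. Neither gene overlapped between hepatoma cells and any of the other 4 classes, nor did Apoa1. Fabp1 ran from 0.1002 to 0.138 in hepatoma cells and from -0.0426 to 0.108 in fibroblasts, so its classes overlapped. Within a set, each of the 5 genes was lower in macrophages, monocytes, T cells and fibroblasts than in hepatoma cells in 6 of 6 sets. Of all genes in the table, 49.5% were lower in 6 of 6 sets in macrophages, 51.8% in monocytes, 49.9% in T cells and 43.8% in fibroblasts, so such a result was common among genes. Higher in 6 of 6 sets were 21.1%, 17.0%, 21.2% and 23.6% of all genes and none of the 5.

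**Figure D2:**
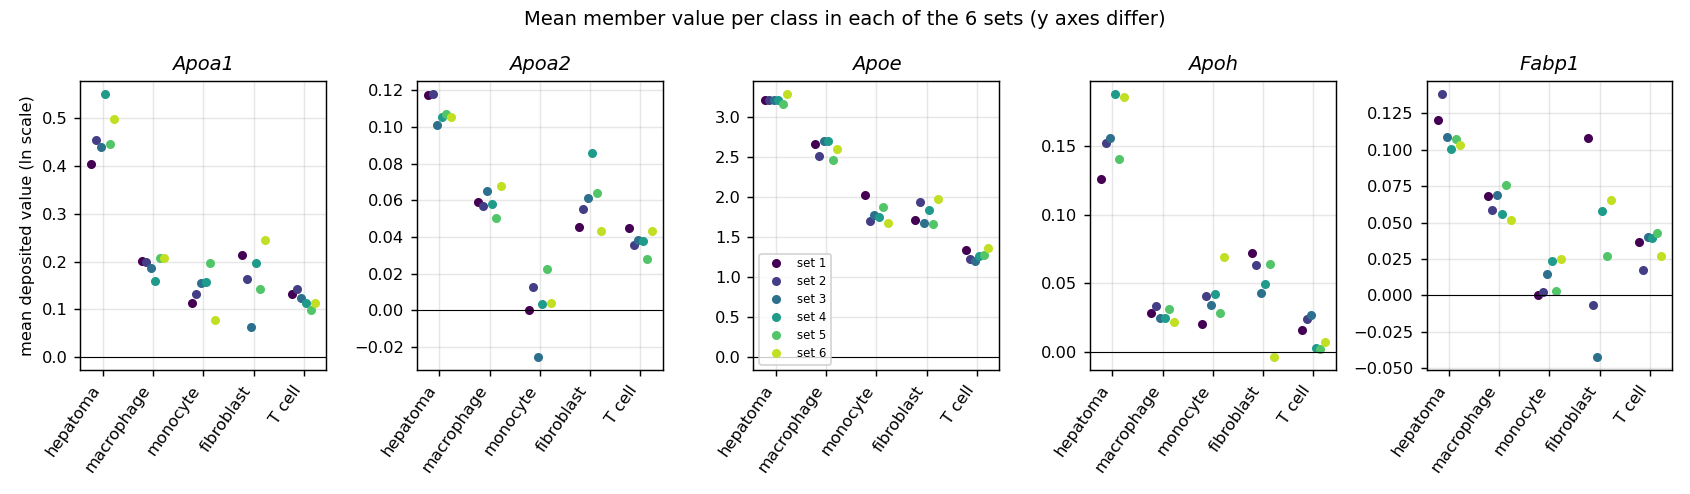
Mean deposited value (natural-log scale, y axes differ) of each gene in 5 classes, 1 point per set with sets 1 to 6 from left to right. The macrophage values of Apoe, 2.46 to 2.70, lie between those of hepatoma cells and T cells in each set.

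To set each level against tumour RNA, the UMIs of a gene were divided by those of a panel of 8 hepatocyte transcripts that entered no gate: Alb, Afp, Ttr and Serpina1a to Serpina1e. RNA from a single source of fixed composition should keep its genes in 1 ratio wherever it is captured. Hepatoma cells as a whole served as that source, but their states (below) differed in this ratio. Apoe was at 2482 CPM and the panel at 9949 in hypoxic cells, against 2977 and 7235 in S phase. Which states the captured RNA came from was not tested. The panel held 9267 CPM in hepatoma cells, 1890 in macrophages, 1210 in monocytes, 1230 in fibroblasts and 954 in T cells. Most of it was Alb and Afp, with 525506 and 741758 of 1352268 panel UMIs in hepatoma cells. In macrophages they had 1776 and 2539 of 4638. Apoe had 340.2 UMIs per 1000 panel UMIs in hepatoma cells and 402 in T cells, a ratio of 1.18 between the classes (1.14 to 1.22). In fibroblasts it had 422, a ratio of 1.24 (1.11 to 1.38) to hepatoma cells. In macrophages it had 1136, which was 3.34 times the hepatoma value (3.25 to 3.43), with 5268 UMIs observed where the hepatoma ratio would give 1578. In monocytes it had 767, or 2.26 times (1.97 to 2.57), from 221 UMIs where that ratio would give 98.0.

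The other hepatoma genes counted were those with at least 2000 UMIs in hepatoma cells and at least 5 UMIs at the hepatoma ratio. All were genes of the hepatoma gate or of the panel itself, each panel gene being divided by the rest of the panel. Gate genes were selected to be high in the hepatoma reference. Values near or below the hepatoma ratio were thus in part built in, and these counts are not an independent background. Of these, 0 of 20 were past 2-fold above it in macrophages (0%), and the highest was Serpina1a at 1.73. In monocytes the count was 0 of 15 (0%), in fibroblasts 0 of 16 (0%), and in T cells 1 of 20 (5%), again Serpina1a at 2.57. The 5 genes were counted without these limits. Among other genes below the limits, Serpina1c was at 2.76 (1.38 to 4.96) and Igf2 at 0.781 in macrophages. In monocytes Serpina1b was at 4.70 (1.725 to 10.2, from 6 UMIs), while Serpina1c and Vtn had 0 UMIs. Alb, the main plasma protein made by liver, was at 0.976 of the hepatoma ratio in macrophages (0.931 to 1.02). There it was divided by the rest of the panel, which was mostly Afp. Apoe was thus the one of the 5 genes past 2-fold above the panel in macrophages and in monocytes, none was in T cells, and in fibroblasts it was Apoh, at 2.31 with an interval of 0.848 to 5.04 from 6 UMIs. With T cells in place of hepatoma cells as the reference, Apoe was 2.83 times as high per panel UMI in macrophages (2.71 to 2.96) and 1.91 times in monocytes (1.66 to 2.19). When the panel was cut to the 5 Serpina1 genes, the log2 value of Apoe was 0.95 in macrophages, just short of 2-fold, and -0.37 in monocytes. The size of the macrophage excess thus depended on the panel. In monocytes the cut panel held only 1 Serpina1a and 6 Serpina1b UMIs, too few to settle the sign of the monocyte value. In neutrophils Apoe was at 0.861 of the hepatoma ratio (0.711 to 1.03), in dendritic cells at 1.27 (1.14 to 1.41) and in NK cells at 1.21 (0.901 to 1.60).

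In macrophages the other genes were closer to the panel than Apoe. There the ratio relative to hepatoma cells was 1.19 for Apoa2 (0.819 to 1.67), 1.02 for Apoh (0.581 to 1.65) and 1.09 for Fabp1 (0.764 to 1.498), all 3 with 1 inside the interval. Apoa1 was at 1.55 (1.30 to 1.84) in macrophages and at 1.45 (1.26 to 1.66) in T cells. Set against T cells, Apoa1 in macrophages was at 1.07 (0.857 to 1.34). In T cells Apoa2 was at 1.496 (1.17 to 1.89), Apoh at 1.13 (0.762 to 1.62) and Fabp1 at 0.957 (0.720 to 1.246).

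**Figure D3:**
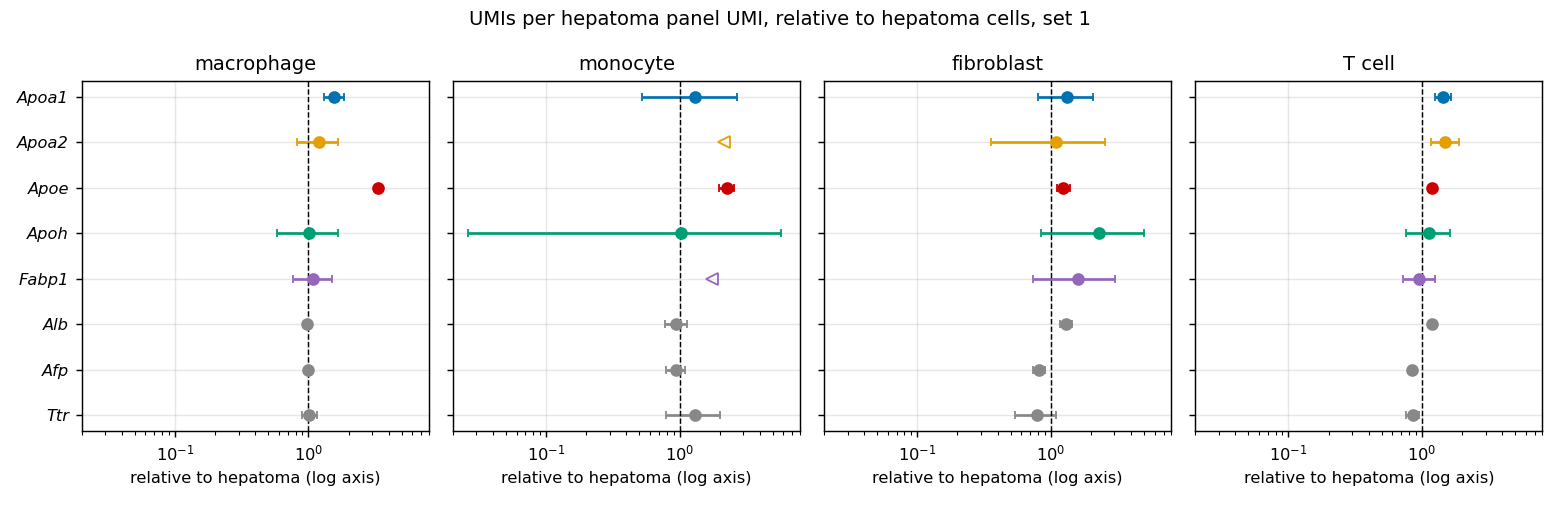
UMIs of each gene per UMI of the hepatocyte panel, relative to hepatoma cells of set 1 (log axis, dashed line at equality), with exact 95% intervals for counting error; Alb, Afp and Ttr in grey were each divided by the rest of the panel, and an open triangle is the upper limit where a class had 0 UMIs. Apoe in macrophages, at 3.34, lies to the right of the other genes.

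A small group of 24 macrophages had no panel UMI at all, and in them Apoe was at 1977 CPM (1519 to 2529) and was detected in 79.2% of cells (exact interval 57.8 to 92.9). In the 55 T cells with no panel UMI it was at 284 CPM (190.4 to 408) and detected in 41.8% (28.7 to 55.9). These cells were shallow, with median depths of 1188 and 1621 UMIs, and the hepatoma gate genes remained at a mean of 3892 and 1939 CPM, so a lack of panel UMIs did not mean a lack of tumour RNA. After every cell of set 1 was thinned to 1000 UMIs, at least 3 Apoe UMIs were left in 49.9% of hepatoma cells, 29.9% of macrophages, 13.5% of monocytes, 5.26% of fibroblasts and 0.961% of T cells. At least 1 was left in 75.8% of macrophages and 32.4% of T cells, against 92.4% and 79.7% before thinning. Over the 6 sets the mean Apoe value of macrophages exceeded that of T cells by 1.19 to 1.501, where Alb exceeded it by 0.33 to 0.54. Of the 5 genes, 4 were higher in macrophages than in T cells in 6 of 6 sets and Apoh in 5, where 32.8% of all genes were higher and 25.9% lower in all 6. In set 1, Apoe, Apoa1 and Fabp1 were past 2-fold higher in macrophages than in T cells, with ratios of 5.60, 2.12 and 2.25, where 38.9% of all genes were past 2-fold higher and 27.5% lower.

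Macrophages were then split by the deposited value of genes of known macrophage states. Trem2, Gpnmb and Spp1 mark lipid-associated macrophages, Arg1 encodes arginase 1, and Cxcl9 an interferon-induced chemokine. Counted with the pseudocount, none of the 5 genes was past 2-fold in either direction in these splits, though Apoh had under 20 UMIs. Fabp1 came closest, at 24.1 CPM in Arg1-high and 11.7 in the other macrophages, from 16 and 21 UMIs. Its ratio without pseudocount was 2.06 (1.005 to 4.14). On the deposited scale it was higher in Arg1-high macrophages in 4 of 6 sets. Past 2-fold lower were 8.18% of all genes with Trem2, Gpnmb and Spp1, 6.81% with Arg1 and 8.39% with Cxcl9, and past 2-fold higher were 5.97%, 6.6% and 8.6%. Apoe was at 2695 CPM in the 147 macrophages high in Trem2, Gpnmb and Spp1 and at 1978 CPM in the other 481, a ratio of 1.36 (1.28 to 1.45). On the deposited scale it was higher in these cells in 6 of 6 sets, by 0.18 to 0.46, where 6.55% of all genes were higher and 7.05% lower in all 6. In the 322 macrophages high in Cxcl9, Apoe was at 1827 CPM against 2665 in the other 306, a ratio of 0.686 (0.649 to 0.724), and it was lower in 6 of 6 sets, by 0.15 to 0.28 (6.95% of all genes were lower in all 6). Fabp1 was higher in 6 of 6 sets in these cells, by 0.0076 to 0.029 (17.2% of all genes were higher). By CPM in set 1, however, its ratio was 1.01 (0.498 to 2.12), from 23 against 14 UMIs. The median depth there was 3523.5 UMIs in Cxcl9-high and 2120.5 in the other macrophages. With Arg1 the Apoe ratio was 1.13 (1.07 to 1.20), and Apoe was higher in 6 of 6 sets (9.3% of all genes were higher and 8.9% lower in all 6). Panel RNA moved with these splits, at 2311 against 1761 CPM for Trem2, Gpnmb and Spp1, 2213 against 1770 for Arg1, and 1770 against 2084 for Cxcl9. Its part in the Apoe differences was not tested.

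Within hepatoma cells the genes were spread unevenly. Apoe had a UMI in 99.8% of the 6022 cells, whereas Apoa1 was detected in 51.3%, Apoa2 in 20.8%, Apoh in 18.2% and Fabp1 in 17.8%. The highest 60 cells for each gene, 1% of the class ranked by CPM, held 78.3% of the Apoa2 UMIs, 71.5% of the Fabp1 UMIs, 47.2% of the Apoa1 UMIs and 39.8% of the Apoh UMIs. For Apoe that share was 4.70%, and for Alb 6.71%. Ranked by UMIs, 50% of the UMIs lay in 13 cells for Apoa2, 21 for Fabp1, 52 for Apoa1 and 61 for Apoh, and in 957 for Apoe. The cut at 60 cells fell within a continuous range: the last Fabp1 cell inside had 1569 CPM and the first outside 1527, and for Apoa2 these were 617 and 604.

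**Figure D4:**
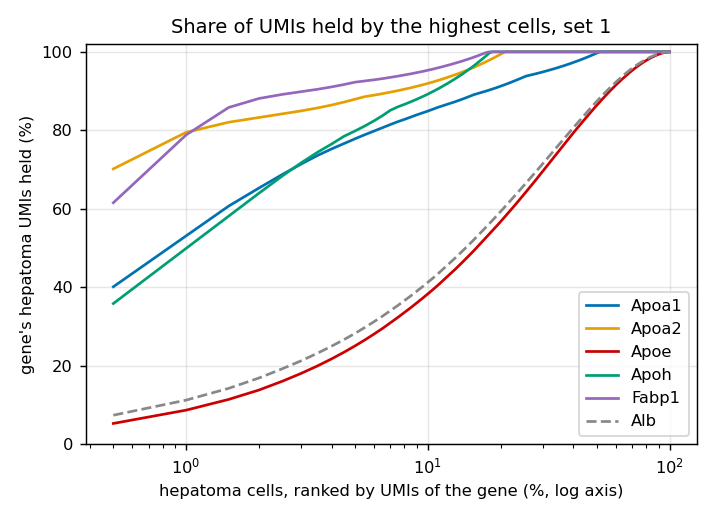
Percent of a gene's hepatoma UMIs held by its highest cells, against the percent of hepatoma cells counted (log axis), with cells ranked by UMIs of the gene, for the 5 genes and Alb in set 1. The Apoa2 curve starts above 50%, which it reaches in 13 cells, while that of Apoe reaches 50% in 957 cells and runs close to that of Alb.

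The same cells were often high for several genes. Of 60 cells each, Apoa2 and Fabp1 shared 41 (68.3%), Apoa1 and Apoh 38 (63.3%), and Apoe shared 7 to 12 with the other genes. Together the lists of Apoa1, Apoa2, Apoh and Fabp1 named 117 cells, of which 21 were in all 4 lists and 55 in 1. Their median depth was 22670 UMIs against 18732 in the other 5905 hepatoma cells. Across hepatoma cells, Pearson's r between Apoa2 and Fabp1 ran from 0.56 to 0.75 over the 6 sets and that between Apoa1 and Apoh from 0.55 to 0.61. Apoe followed Alb (0.55 to 0.60) more than the other 4 genes (0.11 to 0.30). These correlations are descriptions over cells, which share library, depth and ambient RNA.

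Of all genes with at least 20 UMIs, 14.8% were past 2-fold higher in the 117 cells than in other hepatoma cells and 10.8% past 2-fold lower. The genes named here were chosen after their values were seen. Cyp2a4, a liver cytochrome P450, stood at 642 CPM there and 2.73 CPM in other hepatoma cells. Serpinc1, encoding antithrombin, stood at 265 and 2.69 CPM, Plg, encoding plasminogen, at 221 and 2.55, and Itih3, an inter-alpha-trypsin inhibitor chain, at 211 and 2.13. Among panel genes, Serpina1b, an alpha-1-antitrypsin gene, stood at 1131 and 16.1 CPM, and Ttr, encoding transthyretin, at 1451 and 481. Alb and Afp differed less, at 9238 against 3469 CPM and 11664 against 4928 CPM, and Apoe was 1.99 times as high (1.96 to 2.02). Ndrg1, a hypoxia gene, stood at 588 against 558 CPM, and the state genes Ppbp and Tff2 were lower, at 3.58 against 14.8 and 36.1 against 215 CPM. Apoa2 and Fabp1 had Serpinc1 and Itih3 among their 3 most alike genes over hepatoma cells, with r of 0.67 and 0.55 for Apoa2 and 0.70 and 0.59 for Fabp1. The most alike genes were Apoh, Serpina1b and Apoa2 for Apoa1, Apoa1, Apoa2 and Serpinc1 for Apoh, and Alb, Fabp5 and Trf for Apoe, of 1462 genes searched. Over 12 classes of set 1 the most alike gene was Gpnmb for Apoa1, Acot1 for Apoa2, Ocstamp for Apoe, Itih3 for Apoh and C4bp for Fabp1, with r from 0.89 to 0.97.

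Cells high for 1 gene were counted in every set, but not whether they were high for several. The share of hepatoma cells with a deposited value above 2 ran over the sets from 3.75% to 6.77% for Apoa1, 0.162% to 1.15% for Apoa2, 0.487% to 1.12% for Apoh and 0.780% to 1.88% for Fabp1. For Apoe it ran from 95.0% to 96.4%.

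The 117 cells were chosen for high values of 4 of the genes, so leaving them out of the hepatoma class lowers its level of those genes by construction. The values show by how much the class ratios rest on these cells. Without them, only Apoh of the 5 genes was past 2-fold lower in macrophages than in hepatoma cells, with a log2 ratio of -1.11. The log2 ratio moved from -1.97 to 0.28 for Apoa2, from -2.10 to 0.03 for Fabp1 and from -1.64 to -0.59 for Apoa1. For Apoe it moved from -0.55 to -0.52. In fibroblasts 2 genes remained past 2-fold lower, Apoa1 and Apoe, and Fabp1 was level with hepatoma cells at -0.02. In T cells 4 remained, with Apoa2 at -0.32.

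Leaving these cells out of the hepatoma reference raises the panel values of the 4 genes elsewhere by the same construction. Without them, all 5 genes were past 2-fold above the panel in macrophages and 4, all but Apoe, in T cells. In macrophages the log2 value was 2.52 for Apoa2, 2.27 for Fabp1, 1.64 for Apoa1 and 1.12 for Apoh, and in T cells 2.90, 2.19, 1.57 and 1.42. Apoe moved from 1.74 to 1.71 in macrophages and from 0.24 to 0.22 in T cells.

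Hepatoma cells were divided by state: 600 in G2 or M phase by genes such as Top2a and Mki67, 330 in S phase by genes such as Mcm5 and Pcna, 1422 hypoxic by genes such as Ndrg1 and Bnip3, 312 high in Ppbp (a chemokine gene), Anxa1 and Tff2, and 2686 in no state. The 672 cells in several states were left out. By CPM in set 1, Apoa1, Apoa2, Apoh and Fabp1 were lowest in Ppbp-high and S-phase cells and highest in cells in no state. The intervals of Ppbp-high and S-phase cells overlapped for Apoa1 and Apoa2. This order did not hold in every set on the deposited scale. Mean Fabp1 was lower in hypoxic than in S-phase cells in sets 2 to 6 (nearly level in set 2), and mean Apoa2 in sets 2 to 5. In set 1 both were lower in S phase. Apoe differed less than 1.5-fold between any state and cells in no state. Many cells lay within 10% of a state's threshold over the 6 sets (1338 for G2 or M, 1452 for S, 2927 for hypoxic and 1697 for Ppbp-high), so the states are ranges of a score.

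Apoa1 was at 259.5 CPM in cells in no state, 222 in hypoxic, 99.0 in G2 or M, 47.4 in S and 41.7 in Ppbp-high cells. The Ppbp-high level was 6.23-fold lower than that of cells in no state (5.58 to 6.97) and the S-phase level 5.47-fold lower (4.98 to 6.02). Fabp1 was at 115 CPM in no state, 53.1 in G2 or M, 46.4 in hypoxic, 25.4 in S and 8.64 in Ppbp-high cells, the last being 13.3-fold lower (10.5 to 17.2). Apoa2 was at 90.0 CPM in no state, 57.4 in G2 or M, 42.9 in hypoxic, 10.4 in S and 9.40 in Ppbp-high cells. Apoh was at 45.8 CPM in no state, 40.0 in hypoxic, 20.9 in G2 or M, 10.9 in S and 4.95 in Ppbp-high cells. In each of these genes the intervals of S-phase and Ppbp-high cells lay below those of the other 3 groups. In Ppbp-high cells the 4 genes were no higher than in the macrophages of the same set, at 41.7 against 54.6 CPM for Apoa1 and 8.64 against 15.1 CPM for Fabp1, with overlapping intervals for all 4.

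Apoe was at 3587 CPM in no state, 3477 in G2 or M, 3003 in Ppbp-high, 2977 in S and 2482 in hypoxic cells. Its ratio to cells in no state was lowest in hypoxic cells, at 0.692 (0.686 to 0.698). Past 2-fold lower than cells in no state were 4 of the 5 genes in Ppbp-high cells (9.71% of all genes), 4 in S phase (4.53%), 3 in G2 or M phase (2.88%) and 2, Apoa2 and Fabp1, in hypoxic cells (10.9%). None was past 2-fold higher in any state, where 5.45% of all genes were in Ppbp-high, 8.07% in S phase, 8.58% in G2 or M phase and 6.99% in hypoxic cells. The median log2 ratio of the 5 genes was -2.98 in Ppbp-high, -2.14 in S, -1.10 in G2 or M and -0.53 in hypoxic cells, and that of all genes lay between -0.07 and -0.03.

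The cells with very high levels were found in every state but Ppbp-high. They were 76 of 2686 cells in no state (2.83%, exact interval 2.24 to 3.53), 12 of 600 in G2 or M (2.00%, 1.04 to 3.47), 5 of 330 in S (1.52%, 0.494 to 3.5002), 21 of 1422 hypoxic (1.48%, 0.916 to 2.25) and 0 of 312 Ppbp-high cells, where the exact upper limit was 1.18%. The intervals of G2 or M, S and hypoxic cells overlapped that of cells in no state, and that of Ppbp-high cells did not. Nor did that of the 672 cells in several states, where 3 had very high levels (0.446%, 0.0922 to 1.30). Such intervals cover counting error only, and cells of a single sample are not replicates. The high cells were also chosen by their values of Apoa1, Apoa2, Apoh and Fabp1. The intervals therefore cannot decide whether the states differ. Without the cells with very high levels, Apoa1, Apoh and Fabp1 were still past 2-fold lower in S phase and in Ppbp-high cells. Their log2 ratios were -1.32, -1.28 and -1.38 in S phase, and -1.33, -1.60 and -1.19 in Ppbp-high cells. Apoa2 was not past 2-fold lower, at -0.37 in S phase and -0.31 in Ppbp-high cells. In hypoxic cells no gene was past 2-fold without them, with Fabp1 at -0.51, Apoa2 at -0.14 and Apoe at -0.53, and in G2 or M phase only Apoa1 was, at -1.08. In S phase Apoa2 was at -0.73 with looser gates and Apoh at -0.80 after thinning, both short of 2-fold. The G2 or M count of 3 was 0 with looser gates, with a mean over cells in place of a sum, after thinning, and without cells above 4 times the median depth.

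In each set the mean value of all 5 genes was lower in Ppbp-high cells than in cells in no state (20.4% of all genes were lower in 6 of 6 sets and 16.6% higher), and likewise in hypoxic cells (33.2% lower and 14.4% higher). The Apoa1 difference in Ppbp-high cells was -0.22, -0.31, -0.29, -0.42, -0.26 and -0.36 in sets 1 to 6. The Apoe difference in hypoxic cells was -0.45, -0.45, -0.48, -0.43, -0.42 and -0.31, larger in each set than that of any of the other 4 genes on this scale. Genes with means near 0 have little room to fall on it. By CPM in set 1, hypoxic cells were 1.45-fold lower for Apoe, 2.48 for Fabp1, 2.10 for Apoa2, 1.17 for Apoa1 and 1.15 for Apoh. In S phase 4 genes were lower in 6 of 6 sets (16.4% of all genes were lower and 19.9% higher) and Apoa2 in 5. In G2 or M phase no gene was lower in all 6 (17.3% of all genes were lower and 16.4% higher in all 6). There Apoe was lower in 4 sets, and the other genes in every set but set 6.

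**Figure D5:**
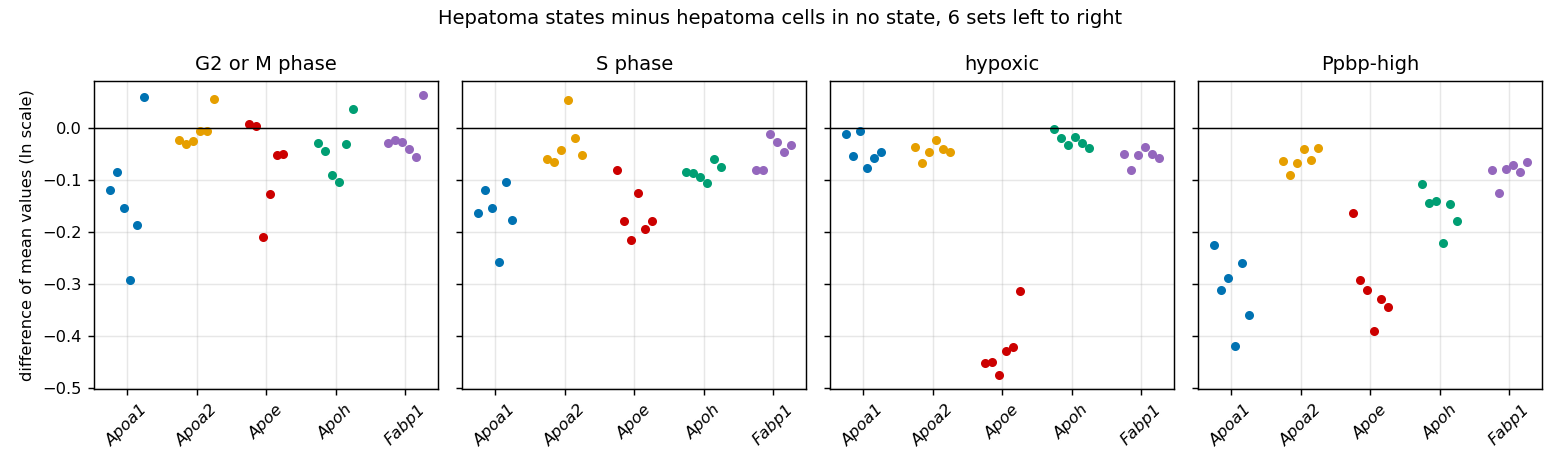
Difference of mean deposited value (natural-log scale) between each hepatoma state and hepatoma cells in no state, 1 point per set with sets 1 to 6 from left to right within a gene. All points of the hypoxic and Ppbp-high panels lie below 0. In hypoxic cells Apoe, the gene with the highest mean values, lies lowest on this scale, between -0.48 and -0.31.

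Other genes of lipoprotein and fatty acid handling were taken from a list of 60, of which 33 were in the table. Between hepatoma states few of them were past 2-fold, and in hypoxic cells these had both signs. In hypoxic cells 4 of 29 with at least 20 UMIs were past 2-fold lower and 2 higher, where 10.9% and 6.99% of all genes were. Angptl8, a secreted inhibitor of lipoprotein lipase, was at 149 CPM against 27.3 in cells in no state, and Fabp4, the fatty acid-binding protein of adipocytes, at 40.3 against 13.2. Apom, a high-density lipoprotein apolipoprotein, was at 13.2 against 41.1 CPM, Acsl1, an acyl-CoA synthetase, at 74.3 against 179, and the sterol synthesis genes Idi1 and Hmgcs1 at 33.3 against 79.8 and 102.7 against 229.7. In Ppbp-high cells, where 9.71% of all genes were lower and 5.45% higher, 5 of 29 were lower and none higher, among them Apom at 6.35 against 41.1 CPM and Apoc1 at 99.8 against 290.0. In S phase 4 of 29 were lower (4.53% of all genes), and in G2 or M phase 2 of 29 (2.88%), Fabp4 and Angptl8, at 5.14 against 13.2 and 12.1 against 27.3 CPM.

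Outside hepatoma cells the list held genes on both sides. In macrophages 14 of 32 were past 2-fold lower than in hepatoma cells, led by Apoc4 at 44.4 against 200.6 CPM, and 5 were higher, where 30.4% of all genes were lower and 22.8% higher. The higher genes were Msr1, a scavenger receptor, at 296 against 1.19 CPM, Cd36, a fatty acid transporter, at 157 against 0.980, Pltp, the phospholipid transfer protein, at 60.3 against 0.802, Trem2 at 25.3 against 0.164, and Angptl4, another lipase inhibitor, at 6.93 against 0.829. In T cells 19 of 32 were lower (35.5% of all genes) and Angptl4 was higher, at 7.07 CPM (23.3%). In monocytes 17 of 32 were lower (44.3%) and 4 higher (23.6%), with Msr1 at 332 CPM. In fibroblasts 16 of 33 were lower (31.2%) and 5 higher (28.2%), with Apod, a small lipid-binding apolipoprotein, at 174 against 0.192 CPM and Fabp4 at 188 against 15.9. The list median in macrophages was -0.77 on the log2 scale, beside -0.28 over all genes, and in T cells -1.52 beside -0.26.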

How the data were processed

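The deposited table holds values on the natural log scale for 2000 genes and 53528 cells, all 53528 columns without a known sample. Per the labels' protocols, libraries were DNBelab C4 3′ UMI libraries, reads were aligned with STAR (2.7.2b, per the submitters' processing notes), cells were chosen with barcodeRanks of DropletUtils and UMIs counted with PISA. The protocols name GRCh38 and the processing notes also mm10, while the gene symbols are those of mouse. How the counts became the pooled table is not given in the sources used here.

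In set 1 each deposited value was ln(1 + UMIs per 10000 UMIs of the cell). UMI totals and counts were recovered for 100% of its 9370 cells, with 100% of values whole within 0.01. Totals ran from 1001 to 261833 UMIs with a median of 11099, and the table's genes took 15.0% of them. Every cell of sets 2 to 6 had values below 0, so depth is unknown there and means of the deposited values were used. Cell names without the set number repeat between sets (22421 distinct of 53528) and are serial numbers, so shared barcodes could not be counted.

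A cell joined the class whose marker score exceeded its threshold by the largest factor, if the next factor was below 0.67 of it. The hepatoma score was not among the scores compared in this way. Hepatoma cells needed a hepatoma score above 0.8 and every other score below 0.3 of its threshold. Over the 6 sets 6733 cells joined no class. Scrublet (scanpy 1.11.5, expected rate 6%) called 91 of the 9370 cells, or 0.971%, as doublets, and these were left out. CPM is the sum of UMIs over the sum of cell totals. Intervals are exact Poisson, binomial or conditional binomial at 95% and cover counting error only. Counts past 2-fold used a pseudocount of 1 CPM and genes with at least 20 UMIs. Scripts were tested on simulated data. One planned promoter motif is not reported here. Named genes were the 5 genes, up to 5 list genes a direction with the largest ratios, and the 3 most alike genes. The genes of the 117-cell comparison outside the panel were chosen after values were seen.

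The 5 genes and all lists were chosen with earlier results of these data known. Gate scores and thresholds, the value of 0.5 that splits macrophages and the top 1% of hepatoma cells were set after values had been seen.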

Additional observations from a re-analysis of the deposited data

How the results depend on the processing

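Alternatives were stricter or looser gates, doublets kept, a mean over cells, thinning to 1000 UMIs, a pseudocount of 10 CPM, leaving out deep cells or cells rich in hepatoma gate genes, other panels and folds, and, added after the data were seen, leaving out the 117 high hepatoma cells and T cells as the panel reference. For the values that moved the cause was not tested, apart from 2 that follow by construction: a lower fold limit counts more genes, and leaving out the 117 cells lowers the hepatoma level of the 4 genes that chose them.

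Of 32 log2 ratios past 2-fold, 256 of 288 values under alternatives were still past it. Of 495 log2 ratios under alternatives, 316 lay within the counting interval, 177 outside it and 2 reversed. Of 235 panel values 170 lay within, 62 outside and 3 reversed. The count of genes past 2-fold lower in G2 or M phase, 3, was 0 with looser gates, a mean over cells, thinning and without deep cells, 1 with pseudocount 10 and 1 without the 117 cells. In hypoxic cells the count of 2 was 1 with pseudocount 10 and 0 without the 117 cells, which also left 1 in macrophages and 2 in fibroblasts. Without those cells the log2 ratio to hepatoma cells reversed to 0.28 for Apoa2 and 0.032 for Fabp1 in macrophages.

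The count past 2-fold above the panel was 1 in macrophages, 1 in monocytes, 0 in T cells and 1 in fibroblasts. Without the 117 cells it was 5, 3, 4 and 4. With pseudocount 10 it was 2 in monocytes, 3 in T cells and 3 in fibroblasts. With the Serpina1 genes alone as the panel it was 0 in macrophages, 0 in monocytes and 5 in fibroblasts. That panel held only 1 Serpina1a and 6 Serpina1b UMIs in monocytes, and 2 Serpina1b and 1 Serpina1c UMIs in fibroblasts. With the other settings, counts in these small classes also moved. The count was 3 in fibroblasts as a mean over cells, 2 in monocytes after thinning, 2 in macrophages without cells rich in hepatoma gate genes, and 0 in monocytes and fibroblasts with T cells as reference. Apoh in fibroblasts reversed to -2.13 after thinning, Apoa2 in monocytes to 0.22 with pseudocount 10 and Apoe in monocytes to -0.37 with the Serpina1 genes. Apoe in macrophages stayed above the panel in every alternative run, from 0.95 to 2.34 on the log2 scale, and Apoa1 ran from -0.14 to 1.64.

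At 1.5-fold, 196 genes were lower in G2 or M phase, 206 in S phase, 391 in hypoxic and 284 in Ppbp-high cells, against 47, 73, 183 and 155 at 2-fold. No paired analysis was possible because no set is tied to a group or replicate; classes were compared within each set instead. With 74 monocytes and 76 fibroblasts, the values of Apoa2, Apoh and Fabp1 there rest on 0 to 9 UMIs.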
